A study of Mus musculus with 2 samples.

Results

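Introns longer than 100000 bases were examined in RNA of the mouse urinary bladder. An intron was taken as the gap between adjacent exons of 1 transcript in the mouse exon annotation deposited with the series (Ensembl release 65, genome build mm9), and each position was counted once. Of 243332 annotated introns, 1738 were longer than 100000 bases (0.714%), and they lay in 918 genes. The series holds 2 libraries of polyadenylated RNA, both from bladder of adult C57BL/6J mice 8 weeks old. The labels call the mice littermates of mixed sex, but give no sex for either library, and they name no treatment and no genetic change. There is no second group, so nothing is compared between conditions. The libraries are numbered as biological replicates, yet both name 1 donor entry and no label says how many animals each holds, so the spread between them may be partly technical.

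Splicing removes an intron by cutting at a donor site at its 5′ end and an acceptor site at its 3′ end, and a read that runs over the joined exons shows that this exact intron was removed. Very long introns are typical of genes for cell adhesion, ion channels, signalling scaffolds and developmental transcription factors, and many lie near the start of the gene, where they separate alternative promoters. Transcribing such an intron takes far longer than transcribing the exons, and some are known to be removed in several steps at internal sites (recursive splicing). The bladder joins a urothelium, which lines the lumen, to a connective tissue layer and to smooth muscle that contracts during voiding.

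The measure used here was the number of reads over each junction. Every junction of the deposited table carries 2 read numbers, which add up to its total and are called libraries R1 and R2 here, since no label ties them to replicate 1 or 2. They held 53589498 and 60510166 junction reads. An intron was called spliced at 3 or more reads over both libraries, because a count of 0 allows up to 3 reads. This and all intervals below cover counting error alone. The tissue label was checked against marker genes. The 4 umbrella cell markers (Upk1a, Upk1b, Upk2 and Upk3a) lay between 671 and 2342 TPM (a transcript level scaled to length and library size) over both libraries, and the 5 smooth muscle markers between 1170 and 8841 TPM. Of 6 neuron markers, 5 lay between 0.10 and 8.33 TPM, while Rbfox3, a neuronal splicing factor gene, had 42.8 TPM in the first and 17.6 TPM in the second replicate. Of 4 skeletal muscle markers, Acta1 lay at 1371 and 1042 TPM and Ckm at 263 and 259 TPM, while Myh1 and Myh4 stayed at or below 0.08 TPM.

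The exon bases joined over a long intron are shown for 7 junctions on which the results turn. Each line gives the last 25 bases of the upstream exon and the first 25 bases of the downstream exon, 5′ to 3′ on the coding strand. Capitals mark the 5 bases at the junction, the last 3 of the upstream and the first 2 of the downstream exon. The bases were read from GENCODE M21 transcripts, in which an intron of the same gene and the same length was found. Parva is shown for its read number, Ugt1a7c and Ugt1a6b because they end at 1 shared acceptor, and the other 4 as examples from genes with several long introns, chosen after their values were seen. Coordinates here and below are those of the deposited mm9 tables, as for Ugt1a6b (chr1:90004375-90111618, plus strand) and Fhit (chr14:10406026-10596253, minus strand).
Parva: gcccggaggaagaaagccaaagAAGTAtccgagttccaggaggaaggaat
Ugt1a7c: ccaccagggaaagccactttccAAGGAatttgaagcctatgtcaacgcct
Ugt1a6b: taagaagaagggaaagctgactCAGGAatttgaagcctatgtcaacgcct
Dmd, 249539-base intron: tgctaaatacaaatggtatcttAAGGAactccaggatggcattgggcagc
Fhit, 190228-base intron: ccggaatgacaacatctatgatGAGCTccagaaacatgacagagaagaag
Pde4d, 130896-base intron: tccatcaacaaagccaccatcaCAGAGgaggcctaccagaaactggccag
Macrod2, 491062-base intron: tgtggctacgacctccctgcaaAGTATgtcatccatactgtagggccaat
The downstream bases of Ugt1a7c and Ugt1a6b are identical, since both first exons are joined to the same common exon. An upstream exon end of AG was found at 58.4% of spliced long introns and at 55.8% of spliced shorter introns. The downstream exon began with G at 46.0% of spliced long and 49.1% of spliced shorter introns. Both shares were thus close to those of shorter introns.

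Long introns had a median length of 147431 bases (quartiles 119066 and 197600), against 1379 bases for the introns of up to 100000 bases, called shorter introns here. Most belonged to protein-coding genes (1570 of 1738). A single long intron was found in 550 genes, 2 in 186 genes, and 3 or more in 182 genes. They were more often the first intron of a transcript than shorter introns were (48.7% against 23.7%). More than shorter introns, they were also found in 1 annotated transcript alone (56.1% against 45.3%).

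Of the 1738 long introns, 772 were spliced (44.4%), against 69.6% of shorter introns and 69.4% of all annotated introns. Any read was seen at 928 long introns, reads in both libraries at 732, and none at 810. Among the 918 genes with a long intron, 545 had at least 1 of them spliced (59.4%). All long introns together held 51430 reads in R1 and 50150 in R2, which is 0.0925% of the reads on annotated introns. The median spliced long intron had 37.5 reads (quartiles 10 and 127), against 180 reads for the median spliced shorter intron.

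The share of spliced introns was lower in each length class above 10000 bases than in the class before it. It was 70.0% up to 1000 bases, 71.2% from 1000 to 10000, 61.1% from 10000 to 50000 and 57.8% from 50000 to 100000 bases. From 100000 to 200000 bases 632 of 1318 introns were spliced (48.0%), and from 200000 to 500000 bases 140 of 381 (36.7%). The level of the gene, given as the mean RPKM (reads scaled by transcript length and library size) of the deposited gene table, moved with this share too, although genes over 5 RPKM were not above those of 1 to 5 RPKM in every class. In genes with an RPKM from 1 to 5, 68.9% of the introns of 100000 to 200000 bases were spliced, against 15.9% in genes up to 0.1 RPKM. In genes with an RPKM from 1 to 5 the share also went down with length, from 89.2% at 1000 to 10000 bases to 54.8% at 200000 to 500000 bases.

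**Figure D1:**
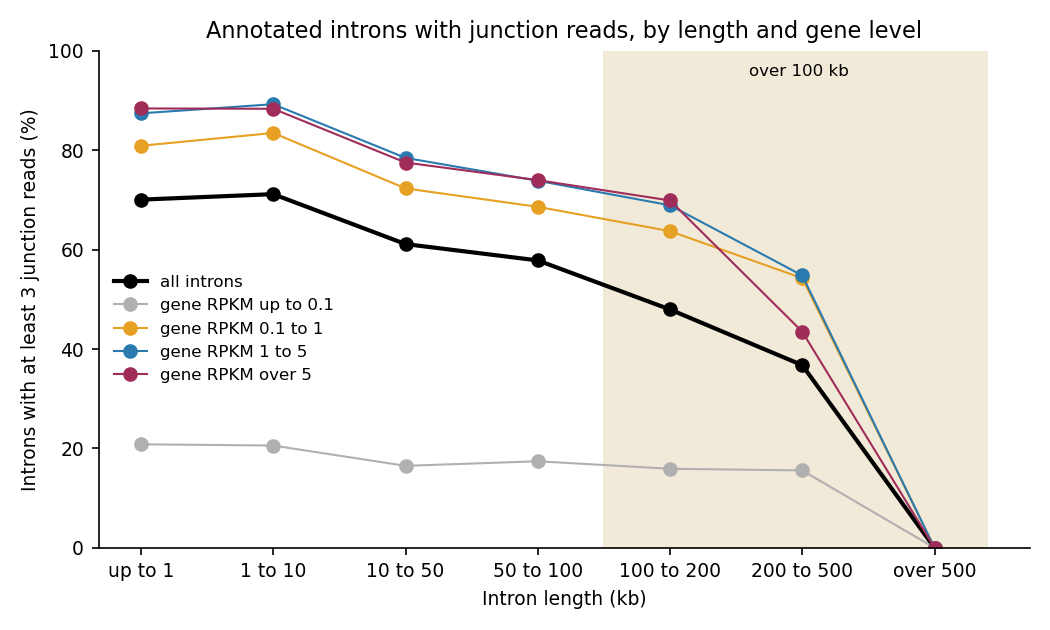
Share of annotated introns with at least 3 junction reads (vertical axis, percent) by intron length (horizontal axis, kilobases), for all introns and for 4 classes of the mean RPKM of the gene. Within each class the share was lower at 200 to 500 kb than at 1 to 10 kb, and no intron over 500 kb had 3 reads.

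None of the 39 introns longer than 500000 bases had a read, and 10 of them lay in genes with an RPKM of at least 1. The junction table itself thinned at that length. It listed 2038 junctions, annotated or not, of 490000 to 500000 bases, 331 of 500000 to 510000 bases and 121 of 510000 to 520000 bases. Over 500000 bases 257 of 2823 listed junctions had 3 or more reads, and none of them was annotated. A limit of the aligner on intron length is not given in the sources used here, and its part in these counts was not tested. Neighbouring introns were counted too. Where the most read adjacent intron of the same transcripts was spliced on each side that has one, 538 of 728 introns of 100000 to 200000 bases were spliced, 114 of 158 of 200000 to 500000 bases, and 0 of 21 over 500000 bases. Among those of them found in 2 or more transcripts, 342 of 375, 68 of 74 and 0 of 6 were spliced in these length classes. Fhit, which encodes a diadenosine triphosphate hydrolase, holds such an intron of 551319 bases in 7 transcripts, without a read and with 135 and 121 reads at the most read introns before and after it. Immp2l, a mitochondrial inner membrane peptidase gene, holds one of 892220 bases in 3 transcripts, again without a read and with 58 and 88 reads at its neighbours. The Immp2l intron was not found in GENCODE M21. Both introns were singled out after their values were seen.

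The most read long intron was in Parva, the gene of alpha-parvin, an actin-binding protein of focal adhesions. It spans 116076 bases (chr7:119571615-119687690, mm9, plus strand, between coding exons) and had 2082 reads in R1 and 1857 in R2, a total of 3939 (95% Poisson interval 3817 to 4064). The 16 shorter introns of Parva split into 11 with 2144 to 5210 reads and 5 with 0 to 9 reads, so the long intron sat among the well-read ones. The intron of Ugt1a7c followed with 814 and 1034 reads (chr1:89992554-90111618). Lhfp, which encodes a tetraspan membrane protein, had 866 and 868 reads over 188038 bases (chr3:52847614-53035651). The RNA-binding protein gene Msi2 held 2 of the most read introns, one of 110000 bases with 702 and 787 reads (chr11:88293557-88403556) and one of 170102 bases with 686 and 682 reads (chr11:88403650-88573751). Among these 5 introns the ratio of the libraries was widest in Ugt1a7c, with R2 higher.

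Sh3gl2, the gene of endophilin A1, which bends membranes in endocytosis, had 654 and 754 reads at its first intron (chr4:84851526-84993027). Babam2, which encodes a scaffold subunit of deubiquitinating complexes, had 644 and 753 reads (chr5:32203538-32303733). The scavenger receptor gene Colec12 followed with 617 and 736 reads over 119267 bases on chromosome 18. Ppp3ca, the catalytic subunit of the calcium-activated phosphatase calcineurin, had 564 and 624 reads (chr3:136333866-136460689). Among the 9 introns named here, R1 was higher in Parva and the 170102-base intron of Msi2, and R2 in the other 7. These are raw counts, not scaled to the junction reads of each library, of which R2 held more.

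**Figure D2:**
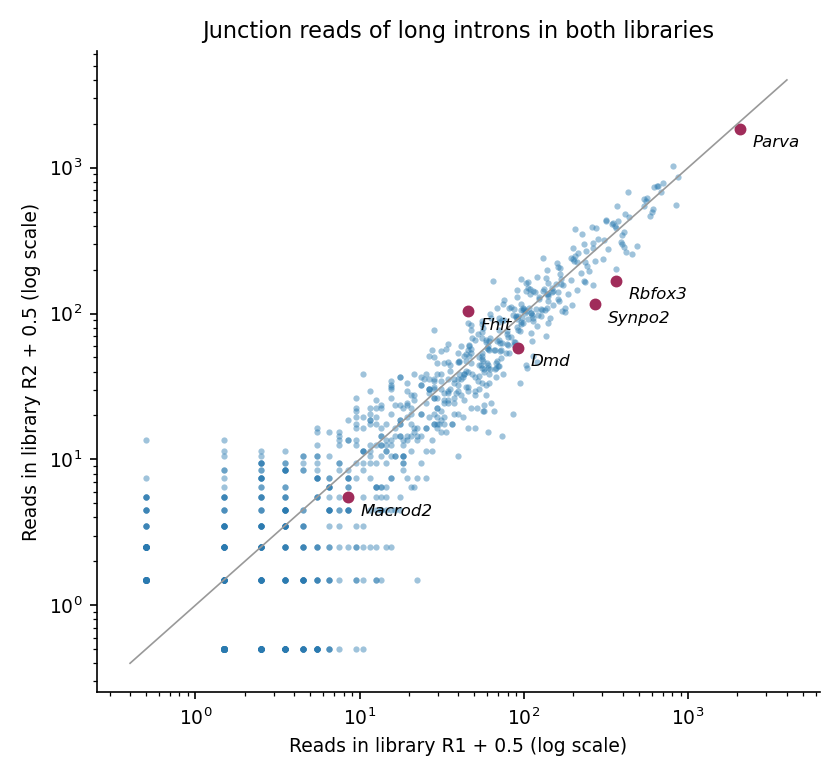
Junction reads of the 928 long introns with a read, in library R1 (horizontal axis) and R2 (vertical axis), both plus 0.5 on log scales, with the line of equal reads and the most read long intron of 6 genes labelled. Points lie along the line at high counts, Synpo2 (271 and 115 reads, chosen after its values were seen) and Rbfox3 (364 and 168) lie below it, and Fhit lies above it.

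**Figure D3:**
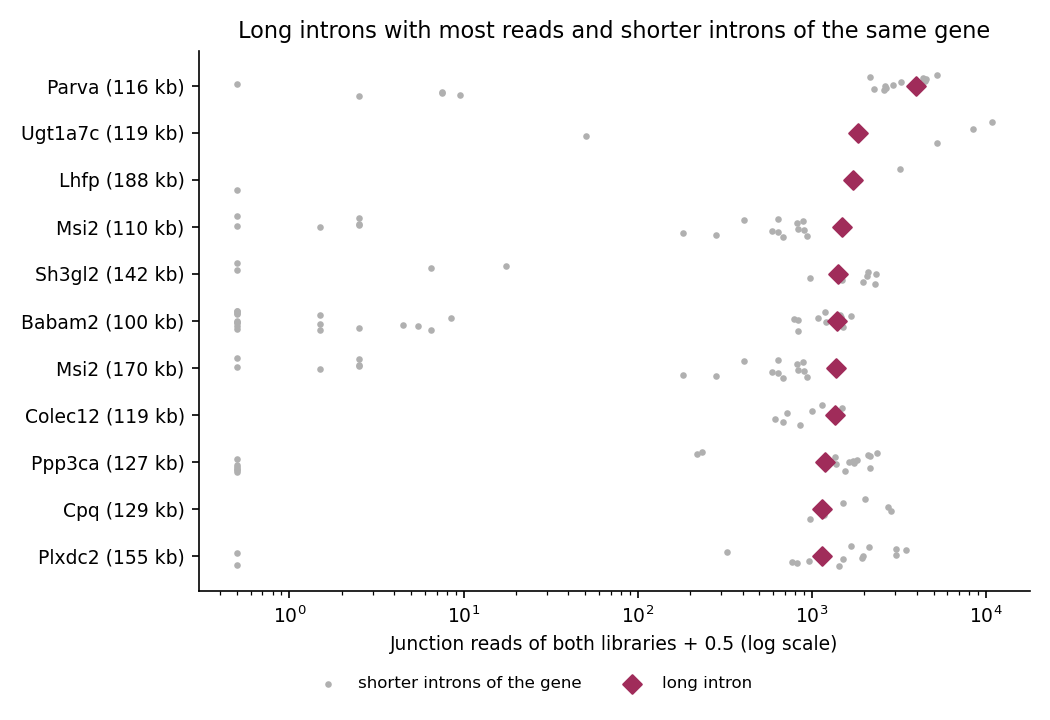
Total junction reads plus 0.5 (log scale) of 11 of the 12 most read long introns (diamonds) and of every shorter intron of the same gene (grey points), with intron lengths in kilobases. The diamonds lie among the well-read shorter introns in most rows, above all shorter introns in both Msi2 rows and below the well-read ones in Ugt1a7c, Lhfp and Ppp3ca.

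The Ugt1a genes encode enzymes that attach glucuronic acid to small molecules for excretion, and their variable first exons are all joined to a common second exon. Of the introns that end at this shared acceptor (the end of the Ugt1a7c intron given above), 7 were longer than 100000 bases. Ugt1a7c gave 814 and 1034 reads from one donor and 56 and 79 reads from another. Ugt1a6b gave 431 and 685 reads, Ugt1a8 32 and 25, and Ugt1a10 13 and 16. The other donor of Ugt1a10 and that of Ugt1a9 gave no read. The shorter intron of Ugt1a6a, of 75712 bases, had more than any of these, 2076 and 2621 reads. The 7 long introns together made up 39.0% of the annotated reads into this acceptor in R1 and 40.9% in R2. The long introns thus took nearly the same share in both libraries. The first exons resemble each other, and how reads that fit several of them were placed is not given in the sources used here.

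The longest intron with 3 reads was in Macrod2, which encodes an enzyme that removes ADP-ribose from proteins. It spans 491062 bases (chr2:140849878-141340939) and had 3 reads in R1 and 4 in R2 (95% Poisson interval 2.81 to 14.4 for the 7 reads). Macrod2 has 9 long introns, of which 6 were spliced with 51 reads in all. Pde4d, a cyclic AMP phosphodiesterase gene, came next with 23 and 36 reads over 479455 bases (chr13:110051140-110530594). Arhgap6 had 17 reads in each library over 423386 bases (chrX:165234744-165658129). The potassium channel gene Kcnb2 had 5 and 10 reads over 396454 bases, and Dpp6, an accessory subunit of potassium channels, had 2 and 6 over 477466 bases. Magi2 (4 and 1 reads), Ctnna3 (3 and 3) and Ccser1 (2 and 1) stayed under 10 reads. Il1rapl1 and Nrxn3, both genes of synaptic membrane proteins, had 4 reads each in R1 and 0 in R2. Among these 10 introns, Pde4d and Arhgap6 alone passed 20 reads.

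The 5 longest annotated introns had no read. They were those of Gm20388 (4384418 bases), Fgfr2 (2956986 bases), Arfip1 (1244595 bases) and Kcnip4 (1041985 and 1014880 bases). In Gm20388, Fgfr2 and Arfip1 both ends of the intron were used with other partners. The donor of the Fgfr2 intron had 1353 reads and its acceptor 885, and each of these 3 introns was found in 1 transcript. The introns of Fgfr2 and Arfip1 were not found in GENCODE M21. In Kcnip4, a potassium channel regulator gene, neither end had a read.

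The 5 genes with the most long introns had at most 5 of them spliced. Pde4d has 16, of which 4 were spliced with 135 and 177 reads in all. The intron of 130896 bases, shared by 7 transcripts, held 91 and 129 of these reads (chr13:110562889-110693784). Upstream of it, 7 long introns of Pde4d end at 1 acceptor with 272 reads, each from another donor. The donors at 479455, 298047 and 158688 bases from it gave 59, 26 and 5 reads, and the other 4 gave none. Pcdh15, a protocadherin gene of hair cell tip links, has 15 long introns with 1 read in all. Fhit has 11, of which 5 were spliced with 73 and 160 reads. Ptprd, a receptor tyrosine phosphatase gene, has 11 with 2 spliced (18 and 13 reads), and Dlg2, a synaptic scaffold gene, has 11 with 3 spliced (11 and 11 reads). Mean gene levels were 3.01 RPKM for Pde4d, 0.901 for Ptprd, 0.403 for Fhit, 0.140 for Dlg2 and 0.0253 for Pcdh15.

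In most genes whose shorter introns were well read, long introns had fewer reads than shorter ones. The mean reads of the long introns were divided by the median reads of the shorter introns, with 0.5 reads added to both, in the 492 genes with at least 3 shorter introns and a median of at least 10 reads there. The median log2 ratio over genes was -0.78 (quartiles -2.61 and 0.00), and it lay below 0 in 365 genes. With R1 alone it was -0.82 (418 genes) and with R2 alone -0.82 (417 genes), and 354 of 400 genes with both values had the same sign in both libraries. These values describe the genes, and no test was made. The minimum of 10 reads was set on the shorter introns alone, which by itself lowers the ratio. Without a minimum the median was -0.23 over 825 genes, with 445 of them below 0 (53.9%). Genes without reads at either kind of intron give 0 there. Among the long introns of the 492 genes, 461 of 876 (52.6%) lay under 0.5 times the median of the shorter introns. For shorter introns set against the others of the same gene the share was 27.8%. Over 2 times the median lay 6.85% of long and 17.8% of shorter introns. The genes were kept by the reads of their shorter introns, so these shares are not a like comparison. In 445 of the 492 genes the mean of the long introns lay within the range of the shorter introns of the same gene, in 37 below it and in 10 above it. A gene with a shorter intron of 0 reads cannot fall below its range. Atp5o, Snd1 and Fgfr2, with 0 reads at their long introns, thus count as within it. These counts therefore do not show how alike long and shorter introns were.

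**Figure D4:**
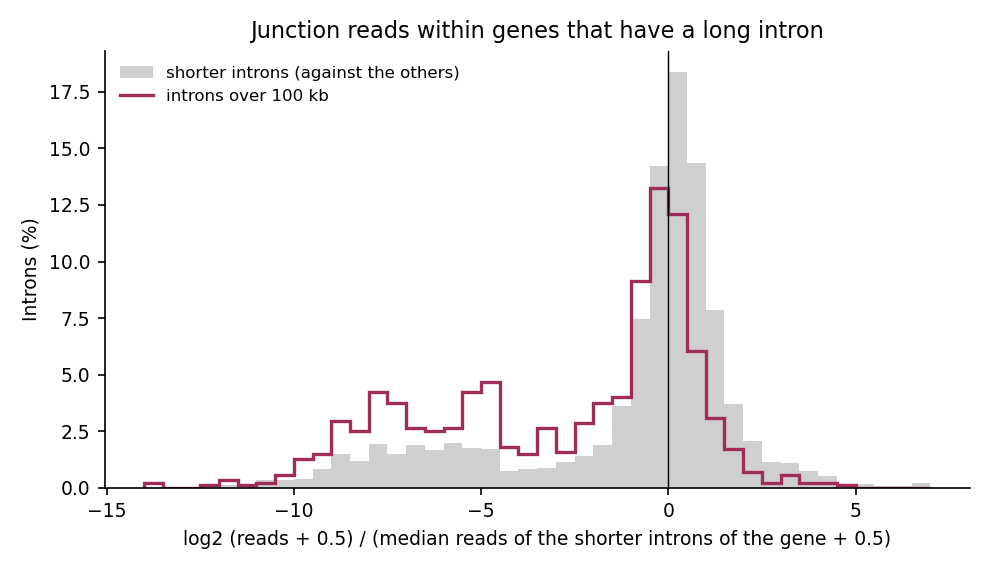
Distribution of log2 junction reads over the median of the shorter introns of the gene (0.5 reads added), for the 876 long introns (line) and for 9899 shorter introns of the same genes against the other shorter introns (grey). Both peak near 0, and long introns more often lie far below 0.

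Adjacent introns gave nearly the same value under a like minimum of reads. Long introns were compared with the directly adjacent shorter introns of the same transcripts, where these had a mean of at least 10 reads. This minimum too was set on the shorter introns alone and by itself lowers the ratio, so the likeness is no independent check. The median log2 ratio was -0.73 over 781 long introns. It was -1.23 for long introns that are first in some transcript and -0.43 for the others. The ratio per gene did not shrink in this way, since it was -0.85 over the 272 genes left when first introns, long and shorter, were left out. Spliced long introns alone, 561 of these, had a median of -0.21. In the 417 genes with a spliced long intron, the gene ratio had a median of -0.56. These 2 values leave out introns or genes by their reads, which by itself raises the median, so they are given as a description.

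The lowest ratios came from introns without a read, so the values are bounds. With the floor of 3 reads, Atp5o, which encodes a subunit of the mitochondrial ATP synthase, had at least 731.5-fold fewer reads at its long intron than at its median shorter intron (2194.5 reads). Snd1, which encodes a nuclease-domain protein of RNA metabolism, had at least 270.8-fold fewer (median 812.5 reads). The bounds were 576.5-fold for Gm20388, 202-fold for Gm38393 and 2822-fold for Ugt1a9, whose shorter introns are those of the common Ugt1a exons. Gm38393 had a shorter-intron median of 606.5 reads and 2.62 RPKM, but 0.82 and 0.74 TPM. Whether the reads at its shorter introns come from its own transcripts was not tested. The two-sided 95% Poisson interval of a count of 0 reaches 3.69 reads, and a bound taken from it would be lower. Each of these 5 long introns was found in 1 transcript. At the other end, Aig1, an androgen-induced lipid hydrolase gene, had 363 and 387 reads at its long intron against a median of 38 at its shorter ones (log2 ratio 4.28). Gm20498 and Cox16, a cytochrome oxidase assembly gene, share a long intron with 368 and 546 reads (log2 ratios 3.44 and 3.17), so their values are not independent. Gpm6b (2.16) and the F-box gene Fbxl17 (2.03) followed. Fbxl17 had 231 and 298 reads at one long intron and 172 and 157 at the other, with a median of 105 at its shorter introns. In all 5 genes the shorter introns ranged from 0 reads to 438 or more, and the long intron stayed under the most read shorter intron of its gene.

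Where a long intron was spliced, it was usually the main use of its sites. It held a median of 98.4% of the reads from its donor and 97.0% of those into its acceptor, counted over all junctions of the table. At least 90% of the donor's reads went to the long intron in 550 of 772 cases, and at least 90% of the acceptor's in 485. Of the 966 long introns under 3 reads, 583 had no end with 3 reads in any junction. The acceptor alone was used in 188, the donor alone in 96 and both in 99. In genes with an RPKM of at least 1, 192 long introns were under 3 reads, with 39, 73, 38 and 42 in these classes.

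Spliced and unspliced long introns differed in how they were annotated. Of long introns in 1 transcript 29.8% were spliced, and of those in 2 or more transcripts 63.0%. Shorter introns differed in the same direction, with 52.4% and 83.9%. First introns of a transcript were spliced in 43.4% of cases and the others in 45.4%, where shorter introns gave 58.3% and 73.1%. An intron of the same gene and length was found in the later GENCODE M21 annotation for 96.9% of spliced and 79.9% of unspliced long introns. For shorter introns, exon bases could be read from such a match for 98.6% of spliced and 85.5% of unspliced ones. M21 has coordinates of build mm10, so an intron whose length differs between the builds would not be found. How many do was not tested. Of the 218 long introns not found in M21, 24 were spliced. By M21, 589 of the 748 matched spliced introns lay between coding exons, 117 in the 5′ UTR, 38 in noncoding transcripts and 4 in the 3′ UTR.

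Genes whose long introns were not spliced were mostly genes of low level. Their median RPKM was 0.0105 over 373 genes, against 0.937 over the 545 genes with a spliced long intron. Of the 313 genes with an RPKM of at least 1, 52 had no spliced long intron (16.6%). The same share of genes without a long intron, 16.6% of 9807 at that level, had under 3 reads at their longest intron. The 2 shares were equal, but a gene with several long introns had several chances to pass, so they are not the same measure. Under 3 reads does not mean that the intron was retained, since other transcripts of the gene can do without it.

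The 10 highest of these 52 genes fell into several kinds. Gm15710 (115 RPKM) and Rpl13-ps6 (96.0 RPKM) had 0 reads at both ends of every long intron and TPM of at most 2.20. Both are processed pseudogenes in M21, so their RPKM is uncertain, and how reads shared with other copies were counted was not tested. In Atp5o (152.5 and 122 TPM) the donor had 2388 reads to other acceptors, in Fgfr2, a fibroblast growth factor receptor gene (64.2 and 62.6 TPM), both ends were used elsewhere, and in Commd1 the donor had 983 and the acceptor 831 reads. Dab2, an endocytic adaptor gene (61.3 and 75.8 TPM), had 1292 reads into the acceptor and 0 from the long intron's donor, which ends the first exon of 3 transcripts. Snd1 (74.8 and 71.3 TPM) had 1791 reads from the donor and 0 into the acceptor. In Bri3 neither end had a read. Rims1, a presynaptic scaffold gene (44.99 and 33.51 TPM), had a median of 1 read over its 42 shorter introns, and Filip1l a median of 0 over 5. Most introns of these 2 genes, shorter ones included, were thus hardly read.

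Gene groups were read against the 59.4% of all 918 genes and 44.4% of all long introns that were spliced. All groups but the neurotransmitter receptors lay above the first share. By introns, the neurotransmitter receptors (46.0%) lay just above the second share. Phosphodiesterases (31.6%), synaptic and axonal adhesion genes (32.7%) and genes known for recursive splicing (37.8%) lay below it. A gene with several long introns had several chances to count in the first share. The groups differed in level too, and the median RPKM over all 918 genes was 0.353. In bulk tissue, fewer cells of a type and less RNA per cell cannot be told apart. Some genes stand in more than 1 group, such as Magi1 in 3.

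Contractile and muscle signalling genes had a spliced long intron in 24 of 26 cases (34 of 51 introns, median 1.22 RPKM). Lpp, a focal adhesion protein of smooth muscle, had 397 and 299 reads. Prkca, the protein kinase C alpha gene, had 131 and 142 reads at one intron and 140 and 135 at the other, and Kcnma1, the pore subunit of the large-conductance calcium-activated potassium channel, 264 and 156. The exceptions were Trpm3 and Kcnip4, both under 0.02 RPKM. Sorbs2 (4 reads, 89.09 and 83.03 TPM), Kcnip1 (4 reads), Cacna1d (5) and Ryr2 (7) were counted as spliced, near the minimum of 3 reads. Plcb4 (232.81 and 192.08 TPM) had 5 and 7 reads at its long intron, against a median of 1717 at its shorter ones. These genes were named after their values were seen. Of 6 genes of the dystrophin complex, which links the cytoskeleton of muscle to the matrix, 5 had a spliced long intron (15 of 22 introns). Sgcd, the delta-sarcoglycan gene, spliced 2 of 6 with 178 and 102 reads at the longer (160052 bases, chr11:47008635-47168686) and 148 and 140 at the other. Sntb1 had 88 and 63 reads, and Sgcz none at 2 introns.

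Dmd, the dystrophin gene, spliced 6 of its 7 long introns. From 5′ to 3′ along the gene they had 47 and 22, 41 and 35, 60 and 15, 73 and 14, 50 and 27, and 92 and 58 reads in R1 and R2. R1 was thus higher at every one of them. It was also higher at most shorter introns of Dmd that had reads, so the difference was not particular to the long ones. The smooth muscle marker Myh11 also differed between the replicates (2113 and 1170 TPM), while Acta2 differed little (8841 and 8508 TPM), and their part in the reads of Dmd was not tested. The 249539-base intron, which is the 44th of its transcript (chrX:81267752-81517290), had 77 reads, with 150 at the intron before it and 94 at the one after. The last of the 6, which is the 55th intron of one transcript and the second of a shorter one, had the most. The intron without a read (195206 bases) begins at a noncoding first exon and ends at the same acceptor as the 249539-base intron. By TPM the gene had 42.22 in the first and 33.35 in the second replicate.

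Phosphodiesterases, which degrade cyclic nucleotides, had 6 of 8 genes with a spliced long intron but 12 of 38 introns. After Pde4d came Pde7b with 130 and 96 reads and Pde1a with 68 and 94. Pde8b (2 reads over 4 introns) and Pde1c (none over 3) were the others. Epithelial polarity and junction genes had a spliced long intron in 11 of 11 cases (15 of 21 introns, median 2.86 RPKM). Among them Pard3, a polarity scaffold gene, had 357 and 426 reads, and Magi1 164 and 125, including 68 and 47 over an intron of 339689 bases (chr6:93893315-94233003). Magi3 had 70 and 65. Shroom3 (6 reads over 2 introns), Erbb4 (6) and Sorbs2 (4) were counted too, near the minimum of 3 reads. The long intron of Pard3 of 280535 bases had no read.

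Matrix and cell adhesion genes had 21 of 29 genes with a spliced long intron (40 of 78 introns, median 0.493 RPKM). Cdh13, the gene of a cadherin anchored by a lipid, spliced 6 of 6 with 1746 and 1248 reads in all, the most of any gene in the groups described here. Gpc6, a heparan sulfate proteoglycan gene, has 4 consecutive introns of 188341 to 260566 bases, with 123 and 125, 211 and 145, 126 and 107, and 163 and 122 reads. They lay within 233 to 356 reads each in total, so no single one stood out. Its relative Gpc3 had 410 and 478. Adamtsl3 (2.54 RPKM) and Nell2 (0.243 RPKM) had no read at their long introns, and Pcdh15 had 1.

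Transcription factor genes had 37 of 44 with a spliced long intron (59 of 98 introns, median 1.12 RPKM). Tshz2 had 462 and 305 reads over 3 introns and Nfib 366 and 200 over 1. Rarb, a retinoic acid receptor gene (8.23 and 9.48 TPM), had 2 reads at its 2 long introns, and Gli3 (0.885 RPKM), a hedgehog pathway factor, and Erg (0.684 RPKM), an endothelial factor, had none. Growth factor and morphogen genes had 20 of 23 (26 of 51 introns, median 1.25 RPKM). Pdgfd, a platelet-derived growth factor gene, split 298 and 398 reads between 2 acceptors 18 bases apart. The longer intron had 168 and 159 reads and the shorter 130 and 239. Ghr, the growth hormone receptor gene, had 234 and 370 reads and Igf1r 170 and 104. Fgfr2, Ntrk2 and Fgf14 had at most 2.

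Genes at common fragile sites, stretches that break under replication stress, had 17 of 19 with a spliced long intron (46 of 90 introns, median 0.403 RPKM). Exoc4 had 213 and 79 reads over 2 introns. Lrp1b had no read at 5 introns, and Ptprn2 had 6 reads over 4 introns, none of which reached 3.

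The 2 neuronal groups had the lowest median levels and the lowest shares of genes with a spliced long intron. Synaptic and axonal adhesion genes had 32 of 52 with a spliced long intron (53 of 162 introns), with a median of 0.0966 RPKM and 27 genes under 0.1 RPKM. Neurotransmitter receptor genes had 10 of 20 (23 of 50 introns, median 0.0256 RPKM). Lsamp, an adhesion protein of the immunoglobulin family, had 283 and 177 reads, including 143 and 92 over 355383 bases (chr16:41533645-41889027). Ctnnd2 had 187 and 127 reads, and Negr1 127 and 132. Gria4, a glutamate receptor subunit gene, had 138 and 114, Gria1 39 and 32, and Grm7 16 and 15. Cntnap2 had 2.46 RPKM and 1 read at its 6 long introns, but its 19 shorter introns had a median of 0 reads too. No long intron of Cadm2 or Cntn6 had a read. Of 10 genes known for recursive splicing in vertebrate brain, 8 had a spliced long intron (14 of 37 introns). They were led by Pde4d, Magi1 and Ncam1 (77 and 53 reads), and Cadm2 and Hs6st3 had no read. Rbfox3, named here because its level set it apart among the neuron markers, had 364 and 168 reads at its intron of 140524 bases and 63 and 24 at that of 157244 bases, both higher in R1.

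**Figure D5:**
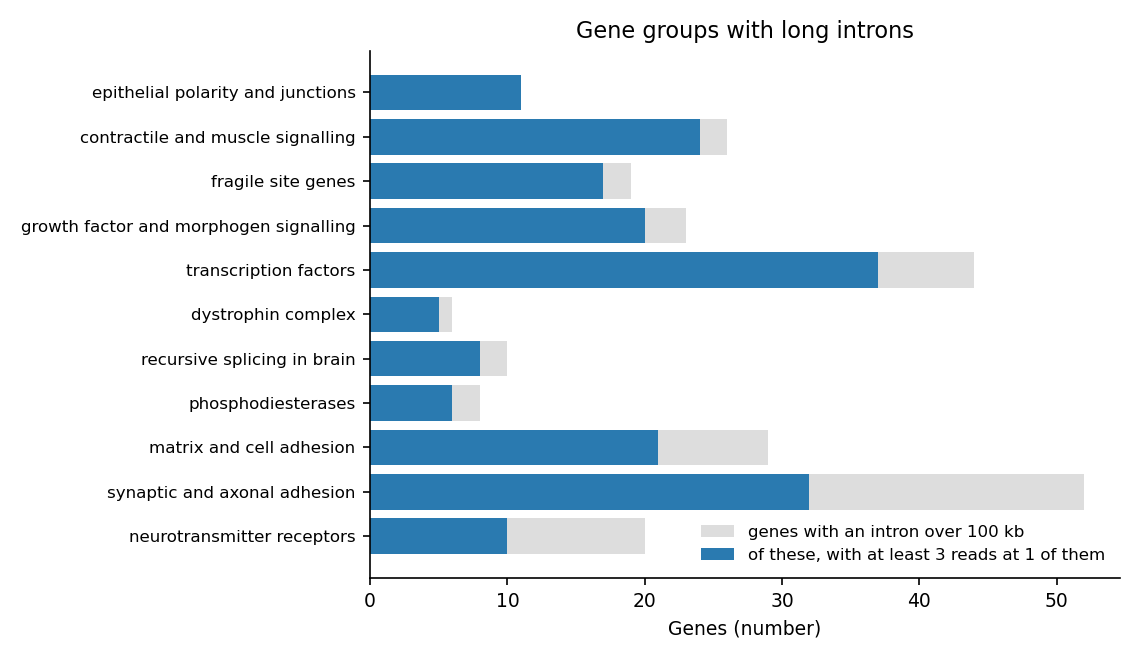
Number of genes (horizontal axis) with an intron over 100 kb in each of 11 gene groups (grey bars) and of those with at least 3 reads at 1 of them (blue bars), ordered by the share. Neurotransmitter receptors (10 of 20) and synaptic and axonal adhesion genes (32 of 52) have the lowest shares and epithelial polarity genes (11 of 11) the highest.

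The exons on both sides of a long intron were compared last. The log2 ratio of the downstream to the upstream exon's RPKM, with 0.1 RPKM added, had a median of 0.00 over 882 long introns with at least 0.1 RPKM on 1 side. It was above 0 at 440, equal to 0 at 279 and below 0 at 163. Above 0 lay 49.9% of long and 21.5% of shorter introns. In the deposited table an exon's RPKM is the sum over the transcripts that hold it, so these ratios show which transcripts were assigned reads rather than reads counted on each exon.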

How the data were processed

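The members, gene groups and alternatives were chosen with earlier results of these data known. Per the labels, the 2 libraries are stranded and polyadenylated. The authors deposited an mm9 exon table and gene table with 2 RPKM values each, not tied to a replicate, whose mean was used. They deposited a junction table (243332 annotated introns, of which 181379 are listed) with whole-number read counts and a reproducibility score per junction. They also deposited mm10 expected counts and TPM per gene and library. Expected counts on Ensembl genes totalled 99367453 and 105057347. For the aligner and its settings the sources used here give nothing that could be tied to these tables.

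Introns were matched to junctions by chromosome, both ends and strand. The planned design assumed 1 read value per junction, but the junction names hold 2, which were used beside the total. Their per-gene log2 ratio correlated at 0.891 across 10613 genes with that of TPM in replicate 2 over replicate 1, so they are read as the libraries. Gene symbols come from GENCODE M21 (850 of 918 genes matched by identifier). With 1 group there was no test and no p-value. Intervals are exact Poisson intervals at 95%. Of 499 group entries 1, Naaladl2, matched no gene, and older names of a gene already listed were merged with it. Scripts ran in Python 3.11.15 with pandas 2.3.3, and the intron and ratio steps were tested on simulated data.

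Named are the 10 long introns with most reads, the 10 longest with 3 reads, the 5 longest, the 5 genes with most long introns, the 10 genes of highest RPKM without 3 reads, the 5 lowest and 5 highest ratios (shorter-intron median of at least 20 reads), and per group the 3 members with most reads and up to 3 of highest RPKM without. Exceptions are marked, and a few named items and 1 gene group are not reported here. Alternatives covered read minimum, length limit, strand, reproducibility, reference introns, pseudocounts, expression measure, each library alone and the M21 match.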

Additional observations from a re-analysis of the deposited data

How the results depend on the processing

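The number of spliced long introns (772) and of their genes (545) stayed within 1.5 times under a minimum of 1 or 10 reads, without regard to strand, with a reproducibility value of 0.1 or less, and with introns found in M21 alone. Other length limits changed what was counted: 2620 introns in 1464 genes over 50000 bases and 140 introns in 116 genes over 200000 bases. With each library alone the counts ranged from 651 to 679 introns and from 487 to 501 genes. The within-gene log2 ratio (-0.78) stayed below 0 throughout. It was -0.86 against the mean of the shorter introns, -0.64 against those of 10000 bases or more, -0.73 against adjacent introns, -0.78 with a pseudocount of 1 read, -0.37 for the highest long intron, -0.81 with a median of at least 50 reads, -0.23 with no minimum, -0.85 without first introns, -0.72 for introns over 50000 bases and -0.72 for introns found in M21. Each library alone gave -0.82 and -0.82. With genes of 0 reads set to the floor of 3 it stayed at -0.78. Expressed genes without a spliced long intron (52 of 313) became 91 of 526 by TPM of both libraries, 90 to 90 without either replicate, 15 of 65 at 5 RPKM and 33 of 292 with introns found in M21. With reads of R1 or R2 alone they were 58 and 64. The exon ratio was 0.057 with at least 1 RPKM on 1 side, and 0.00 with either RPKM value alone. The cause of these shifts was not tested, apart from the number of introns or genes counted. The alternatives of single libraries and of M21 were chosen after seeing the data. No paired analysis was possible because the series has 1 group. Depth limits introns of low genes: under 3 reads an intron was not called spliced here, even where it had a read. The 2 libraries give no more than a range.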

Other observations

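The libraries differed by intron length. Among introns with at least 20 reads, the median log2 ratio of R2 over R1 reads was 0.19 up to 1000 bases, 0.16 from 1000 to 10000, 0.10 from 10000 to 50000, -0.05 from 50000 to 100000, -0.08 from 100000 to 200000 and -0.20 from 200000 to 500000 bases. Over all long introns it was -0.10 (SD 0.68 over 483 introns), against 0.17 (SD 0.59 over 140208) over shorter introns. The ratios are not scaled to the junction reads of the libraries (53589498 in R1 and 60510166 in R2), so their sign alone carries no meaning. The ranges overlap widely, and introns of 1 gene are not independent.

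The junction table also lists 248000 unannotated junctions longer than 100000 bases. Of these 226916 had a single read (91.5%) and 10438 had 3 or more (4.21%). Among the 928 annotated ones with a read, 95 had a single read (10.2%). No long intron had a read on the opposite strand.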
